A study of Mus musculus with 48 samples.

Results

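The fat cells of the dermis were followed through 10 genes that mark them, Adipoq, Lep, Cfd, Plin1, Fabp4, Retn, Cd36, Ucp1, Slc2a4 and Cebpa, chosen by gene symbol in the annotation of the array. Of these 10 genes, 7 had a probeset among the 38385 of the array (8 probesets in all, since Cd36 had 2), and Cfd, Retn and Slc2a4 are not analysed here. RNA was measured in dorsal skin of 48 male C57BL/6 mice, 1 array per mouse, after 14 days of oral dosing with an inhibitor of DGAT1, an enzyme of the last step of triglyceride synthesis, or with vehicle. The labels give an age of 8 weeks, and the methods describe mice made obese by a high-fat diet. The methods also name dorsal and ventral skin as sites of biopsy, whereas the labels give dorsal skin for every array.

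Study 1 held 8 mice on Cpd2, 8 on Cpd1 and 8 on vehicle. Study 2 held 4 mice on Cpd2, 4 on Cpd6 and 4 on vehicle. Study 4 held 4 mice on Cpd6, 4 on Cpd18 and 4 on vehicle. The vehicle was methylcellulose, no mouse carried an engineered allele, and the labels give no dose, so that equal doses of the compounds are not known from them. Cpd2 and Cpd6 are the inhibitors that the study found to shrink the sebaceous glands (skin-positive), and Cpd1 and Cpd18 are those that it found not to (skin-negative). The skin sections that the study shows for Cpd1 came from a lower dose than those for Cpd2. Cpd6 and Cpd18 belong to the same structural group of the study. Each array is a separate mouse.

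Beneath the hair-bearing skin of the mouse lies a layer of dermal white fat, whose cells store triglyceride in a large lipid droplet and release hormones into the blood. The layer is known to thicken and thin with the growth cycle of the hair follicle. A full skin biopsy holds these cells together with epidermis, follicles, sebaceous glands, vessels and the thin muscle under the skin. In such a biopsy, fewer fat cells and less RNA per fat cell cannot be told apart.

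The values are intensities on a log2 scale, so a difference of 1 is a change by a factor of 2, and a level of one gene is not set against that of another. All 7 genes lay above 2.93, the 25th percentile of the array, under which probesets were not tested. Of the defining markers, Adipoq lay between 11.23 and 12.56 and Lep between 10.79 and 12.43 in the 48 mice, and Ucp1, the marker of heat-producing fat, lay between 3.09 and 4.50. A change was called at an adjusted p under 0.05, over the 28789 probesets tested.

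The promoters of 8 of the 10 genes were found in the RefSeq table for the mouse genome build GRCm38.p6, and those of Fabp4 and Slc2a4 were not in it. The 3 sequences shown are those of the hormones Lep and Adipoq and of the lipid droplet coat gene Plin1, chosen to show members with and without a match to the site of C/EBP, the factor family of Cebpa. Each gives the 250 bases before the start of the gene, 5′ to 3′ on the strand of the gene, with matches to the C/EBP core TTGCNNAA in capitals.
Lep, chr6:29059971-29060220, plus strand: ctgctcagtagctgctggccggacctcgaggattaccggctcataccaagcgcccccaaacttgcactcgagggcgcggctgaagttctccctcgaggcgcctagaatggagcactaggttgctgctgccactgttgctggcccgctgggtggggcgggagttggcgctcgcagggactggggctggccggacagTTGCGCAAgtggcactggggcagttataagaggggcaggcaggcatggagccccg
Plin1, chr7:79732777-79733026, minus strand: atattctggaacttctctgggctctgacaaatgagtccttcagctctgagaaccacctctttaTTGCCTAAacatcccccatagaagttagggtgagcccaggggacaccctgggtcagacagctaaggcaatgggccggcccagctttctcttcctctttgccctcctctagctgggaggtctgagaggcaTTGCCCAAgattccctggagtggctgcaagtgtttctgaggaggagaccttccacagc
Adipoq, chr16:23146286-23146535, plus strand: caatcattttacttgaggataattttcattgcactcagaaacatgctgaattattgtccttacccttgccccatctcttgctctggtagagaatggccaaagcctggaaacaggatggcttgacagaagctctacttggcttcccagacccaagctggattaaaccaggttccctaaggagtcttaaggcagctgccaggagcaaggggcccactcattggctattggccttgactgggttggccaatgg

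In the promoter of Lep the match lay at positions −55 to −48, counted from the start of the gene, and was the full palindrome TTGCGCAA, which is contained in the core and is found in 0.164% of the 32851 promoters of the table. Plin1 held 2 matches to the core, TTGCCTAA at −187 to −180 and TTGCCCAA at −58 to −51. The core was found in 9.56% of all promoters, on either strand. Of the other motifs searched, AGGTCA (14.0% of promoters) was found in Cd36 and Ucp1 and TATAAA (12.4%) in Cebpa. CACGTG (6.02%) and AGGTCA repeated in the same direction with 1 base between the copies (0.0335%) were found in none of the 8. These matches describe the letters alone.

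The skin-positive compounds gave few called differences from vehicle in the 7 genes. Against vehicle, none of them was called with Cpd2 in Study 1 or Study 2 or with Cpd6 in Study 2, and Cebpa alone was called with Cpd6 in Study 4, where it rose by 0.15. With the skin-negative compounds none was called. The differences from vehicle ran from −0.17 to 0.47 over the 7 genes and the 6 pairs of compound and vehicle. Those with Cpd2 in Study 1 changed when vehicle replicate 4, a mouse low in most of these genes, was left out. Plin1 then differed by −0.37 and Lep by −0.26, neither of them called, and Cd36 was called lower (−0.29). The direction of this shift follows from leaving out a vehicle mouse that is low in these genes. The plot of values by mouse shows that the groups of each gene largely overlapped.

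**Figure D1:**
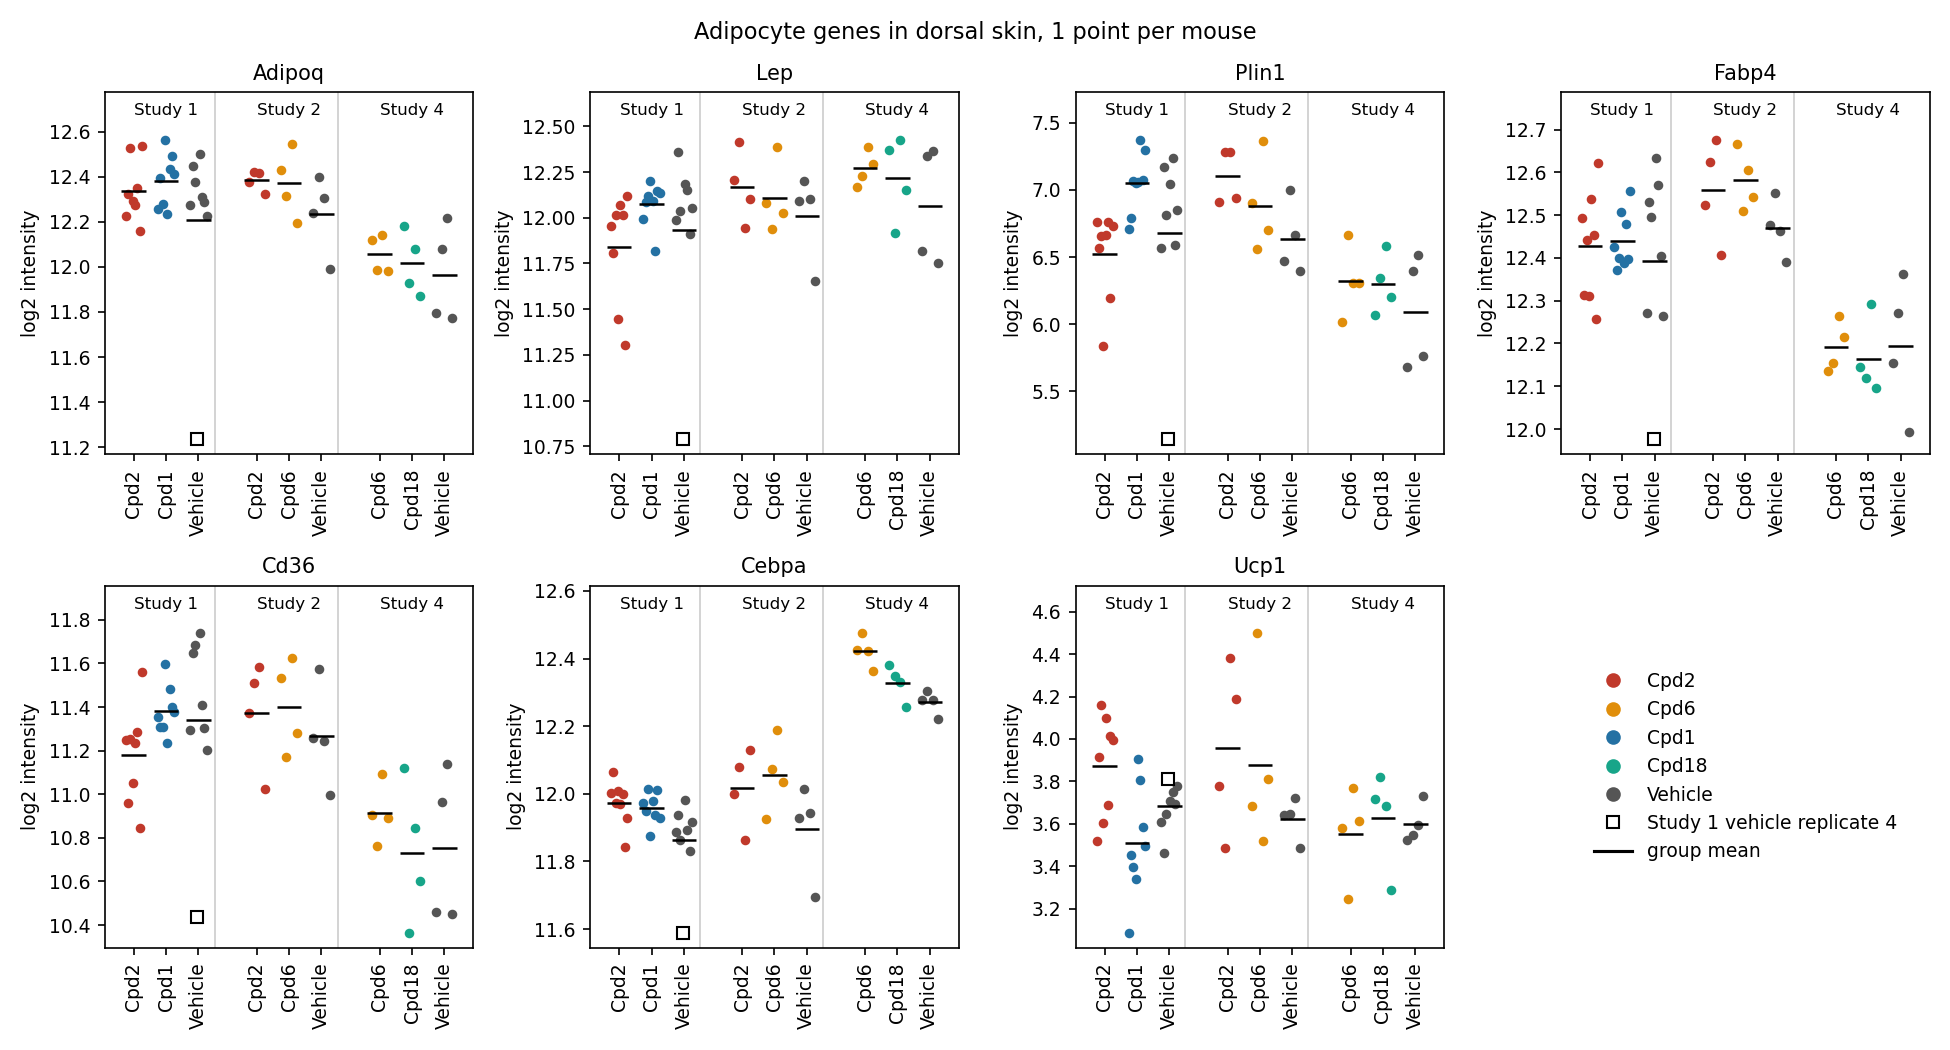
Log2 intensity (vertical axes, 1 panel per gene, each with its own range) of the 7 dermal adipocyte genes in each of the 48 mice, by group along the horizontal axis. Dots are mice, bars are group means, and the open square is vehicle replicate 4 of Study 1, which lies at 11.23 for Adipoq and 5.14 for Plin1.

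Adipoq encodes adiponectin, a hormone released almost solely by fat cells. In Study 1 its lowest, median and highest levels were 12.16, 12.31 and 12.54 in Cpd2 mice, 12.23, 12.40 and 12.56 in Cpd1 mice, and 11.23, 12.30 and 12.50 in vehicle mice. The medians lay close together, and 1 vehicle mouse lay far below the rest. In Study 2 it was 12.38, 12.42, 12.42 and 12.32 in Cpd2 mice, 12.43, 12.31, 12.54 and 12.19 in Cpd6 mice, and 12.24, 12.40, 12.30 and 11.99 in vehicle mice. In Study 4 it was 12.12, 11.99, 12.14 and 11.98 in Cpd6 mice, 12.18, 11.93, 12.08 and 11.87 in Cpd18 mice, and 11.80, 12.08, 12.21 and 11.77 in vehicle mice. In both studies the ranges overlapped, and the lowest value was that of a vehicle mouse. The largest difference from vehicle was 0.18 (SE 0.12, adjusted p = 0.545) with Cpd1, and the smallest 0.05 (SE 0.10, adjusted p = 0.924) with Cpd18.

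Lep encodes leptin, the hormone that signals the size of the fat stores to the brain. In Study 1 its lowest, median and highest levels were 11.30, 11.98 and 12.12 in Cpd2 mice, 11.82, 12.10 and 12.20 in Cpd1 mice, and 10.79, 12.05 and 12.36 in vehicle mice. Cpd2 replicates 4 and 7, at 11.44 and 11.30, were the lowest treated mice. In Study 2 it was 12.20, 12.41, 11.94 and 12.10 in Cpd2 mice, 12.08, 11.94, 12.39 and 12.03 in Cpd6 mice, and 12.09, 12.20, 12.10 and 11.65 in vehicle mice. In Study 4 it was 12.17, 12.23, 12.38 and 12.30 in Cpd6 mice, 12.37, 11.92, 12.43 and 12.15 in Cpd18 mice, and 11.82, 12.34, 12.36 and 11.75 in vehicle mice. The 4 Cpd6 mice of Study 4 lay within the range of their vehicle mice save for 1 at 12.38. The differences from vehicle were −0.09 (SE 0.15, adjusted p = 0.754) with Cpd2 in Study 1 and 0.20 (SE 0.14, adjusted p = 0.363) with Cpd6 in Study 4, and the other 4 lay between 0.10 and 0.15.

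Plin1 encodes perilipin 1, which coats the lipid droplet of the fat cell and guards it from lipases. It varied most between mice of a group among the 7 genes, with a within-group SD of 0.39. In Study 1 its lowest, median and highest levels were 5.84, 6.66 and 6.76 in Cpd2 mice, 6.71, 7.06 and 7.37 in Cpd1 mice, and 5.14, 6.83 and 7.24 in vehicle mice. Cpd2 and Cpd1 mice overlapped only between 6.71 and 6.76. Cpd2 was lower than Cpd1 by −0.53 (SE 0.21, 95% interval −0.96 to −0.10), which did not pass (limma adjusted p = 0.0831), although it passed with the methods' t-test (adjusted p = 0.0217). In Study 2 Plin1 was 6.91, 7.28, 7.28 and 6.94 in Cpd2 mice, 6.91, 6.56, 7.36 and 6.70 in Cpd6 mice, and 6.47, 6.998, 6.67 and 6.40 in vehicle mice. There Cpd2 differed from vehicle by 0.47 (SE 0.19, adjusted p = 0.567), with 1 vehicle mouse above 2 of the 4 Cpd2 mice. In Study 4 it was 6.01, 6.66, 6.30 and 6.31 in Cpd6 mice, 6.07, 6.35, 6.58 and 6.20 in Cpd18 mice, and 5.68, 6.39, 6.52 and 5.77 in vehicle mice. All 3 groups of Study 4 overlapped.

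Fabp4 encodes the fatty acid carrier of the fat cell cytoplasm. It was among the steadiest genes of the array, with a within-group SD of 0.13, and 5.1% of the tested probesets had a smaller one. In Study 1 its means were 12.43 ± 0.13 in Cpd2 mice, 12.44 ± 0.07 in Cpd1 mice and 12.39 ± 0.22 in vehicle mice (SD, n = 8 each). In Study 2 they were 12.56 ± 0.12 in Cpd2 mice, 12.58 ± 0.07 in Cpd6 mice and 12.47 ± 0.07 in vehicle mice (SD, n = 4 each). In Study 4 they were 12.19 ± 0.06 in Cpd6 mice, 12.16 ± 0.09 in Cpd18 mice and 12.20 ± 0.16 in vehicle mice (SD, n = 4 each). The largest difference from vehicle was 0.11, with Cpd6 in Study 2, and the 95% intervals of all 6 differences lay between −0.19 and 0.25.

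Cd36 encodes a fatty acid transporter that fat cells share with endothelium and macrophages. In Study 1 its lowest, median and highest levels were 10.84, 11.24 and 11.56 in Cpd2 mice, 11.24, 11.36 and 11.60 in Cpd1 mice, and 10.44, 11.36 and 11.74 in vehicle mice. Cpd2 differed from vehicle by −0.16 (SE 0.13, adjusted p = 0.473) over all 16 mice. Without vehicle replicate 4, the mouse at 10.44, the difference was −0.29 (SE 0.09, adjusted p = 0.0298) and Cd36 was called, in a comparison that then called 17.7% of all probesets. The second probeset of Cd36 gave −0.30 (SE 0.14, adjusted p = 0.147) without that mouse and was not called. With the 3 Cpd2 mice low in muscle genes left out as well, the first probeset gave −0.21 (adjusted p = 0.206). In Studies 2 and 4 the difference from vehicle lay between −0.02 and 0.16, and no adjusted p was under 0.574.

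Cebpa encodes C/EBP alpha, a transcription factor that drives the last steps of fat cell formation and is also made in epidermis. It was the steadiest of the 7 genes, with a within-group SD of 0.09, which 0.6% of tested probesets fell below. In Study 4 it was 12.42, 12.47, 12.42 and 12.36 in Cpd6 mice, 12.38, 12.35, 12.33 and 12.26 in Cpd18 mice, and 12.28, 12.30, 12.28 and 12.22 in vehicle mice. Every Cpd6 mouse lay above every vehicle mouse, and Cpd18 mice overlapped with both. The rise with Cpd6 was 0.15 (1.11-fold, SE 0.05, 95% interval 0.05 to 0.25, limma adjusted p = 0.0492, and 0.0392 with the methods' t-test). This call was lost when any 1 of the 8 mice was left out, with adjusted p between 0.0612 and 0.134 and the difference between 0.13 and 0.17. Cpd6 and Cpd18 differed by 0.09 (95% interval −0.01 to 0.19, adjusted p = 0.436). In Study 2 Cebpa was 12.00, 12.08, 11.86 and 12.13 in Cpd2 mice, 11.93, 12.07, 12.19 and 12.04 in Cpd6 mice, and 11.93, 12.01, 11.94 and 11.70 in vehicle mice, and the groups overlapped. Its lowest, median and highest levels in Study 1 were 11.84, 11.99 and 12.06 in Cpd2 mice, 11.88, 11.96 and 12.01 in Cpd1 mice, and 11.59, 11.89 and 11.98 in vehicle mice. Cpd2 differed from vehicle there by 0.11 (SE 0.05, unadjusted p = 0.026, adjusted p = 0.127), the smallest p of the 7 genes in that comparison.

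Ucp1 encodes the uncoupling protein by which brown and beige fat cells make heat. Its levels were near the filter of 2.93 in all groups. In Study 1 its lowest, median and highest levels were 3.52, 3.95 and 4.16 in Cpd2 mice, 3.09, 3.47 and 3.90 in Cpd1 mice, and 3.46, 3.70 and 3.81 in vehicle mice. Ucp1 was higher with Cpd2 than with Cpd1 by 0.37 (1.29-fold, SE 0.12, 95% interval 0.13 to 0.61, adjusted p = 0.0316), although the ranges overlapped. The call was lost when 8 of the 16 mice were left out in turn (Cpd2 replicates 2, 3, 5, 7 and 8 and Cpd1 replicates 1, 3 and 4), where adjusted p reached 0.0678. It was also lost with the methods' t-test (adjusted p = 0.0603). Neither compound differed from vehicle in a called way, at 0.19 (SE 0.12, adjusted p = 0.319) with Cpd2 and −0.17 (SE 0.12, adjusted p = 0.54) with Cpd1. In Study 2 Ucp1 was 3.78, 3.49, 4.38 and 4.19 in Cpd2 mice, 3.69, 4.50, 3.52 and 3.81 in Cpd6 mice, and 3.64, 3.65, 3.72 and 3.48 in vehicle mice. In Study 4 it was 3.58, 3.25, 3.77 and 3.61 in Cpd6 mice, 3.71, 3.82, 3.69 and 3.29 in Cpd18 mice, and 3.52, 3.55, 3.59 and 3.73 in vehicle mice. Vehicle mice lay closer together than treated mice in both studies, and all groups overlapped.

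Few of the 7 genes were called in any comparison. With Cpd2 in Study 1 limma called 0 of the 7, against 13.1% of all probesets, where 1 had an unadjusted p below 0.05 and the methods' t-test called 0. With Cpd1 in Study 1 it called 0 of the 7, against 0.327% of probesets, where 0 had an unadjusted p below 0.05 and the methods' t-test called 0. Between Cpd2 and Cpd1 it called 1 higher (Ucp1), against 17.2% of probesets. Members' medians in these 3 comparisons were 0.04, 0.10 and −0.05.

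In Study 2 all 7 differences were positive with each compound, with medians of 0.15 for Cpd2 and 0.14 for Cpd6, and the 2 comparisons share their 4 vehicle mice. With Cpd2 limma called 0 of 7, against 0.129% of probesets, where 1 (Plin1) had an unadjusted p below 0.05 and the methods' t-test called 0. With Cpd6 it called 0 of 7, against 0.379% of probesets, where 0 had an unadjusted p below 0.05 and the methods' t-test called 0. Between Cpd2 and Cpd6 it called 0 of 7 and 0% of all probesets, where 0 of 7 had an unadjusted p below 0.05 and the methods' t-test called 0. The 95% intervals of these 7 differences between the 2 skin-positive compounds lay between −0.42 and 0.62.

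In Study 4 limma called 1 of 7 with Cpd6 (Cebpa, higher), against 10.7% of probesets. With Cpd18 it called 0 of 7, against 0.00347% of probesets, where 0 had an unadjusted p below 0.05 and the methods' t-test called 0. Between Cpd6 and Cpd18 it called 0 of 7, against 0.49% of probesets, where 0 had an unadjusted p below 0.05 and the methods' t-test called 0. The 95% intervals of those 7 differences lay between −0.40 and 0.53.

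Whether a compound acted alike in 2 studies was tested as a difference of differences. The Cpd2 effect in Study 1 was below that in Study 2 for all 7 genes, from −0.62 for Plin1 (95% interval −1.28 to 0.03, adjusted p = 0.351) to −0.01 for Cebpa. limma called 0 of 7, against 0.726% of probesets, and 0 had an unadjusted p below 0.05. The Cpd6 effect in Study 4 minus that in Study 2 lay between −0.30 and 0.11. There limma called 0 of 7 and 0% of all probesets, and 0 of 7 had an unadjusted p below 0.05.

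**Figure D2:**
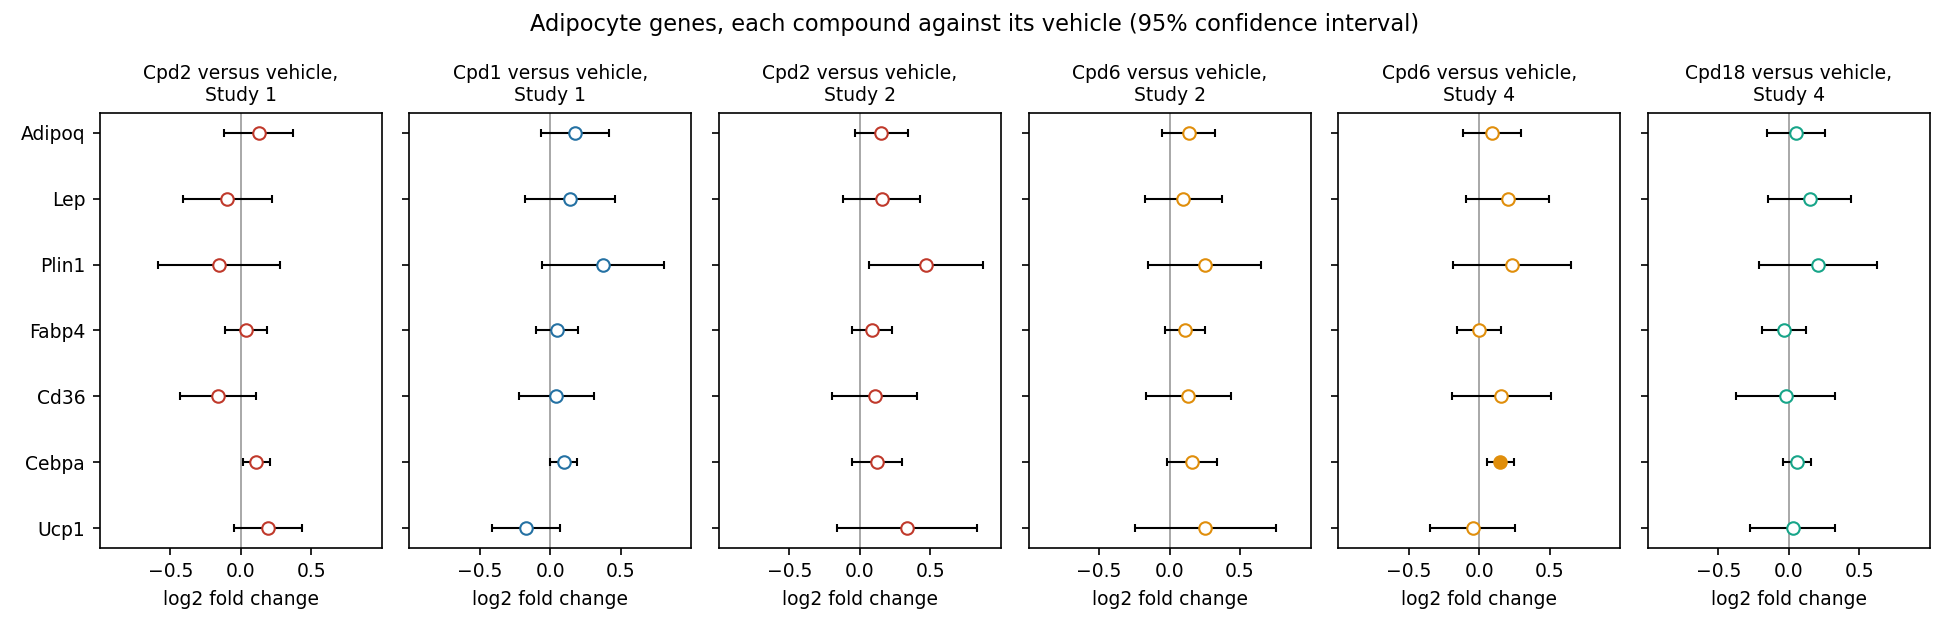
Log2 difference from the vehicle mice of the same study (horizontal axes) for the 7 genes (vertical axis), 1 panel per compound and study. Points are differences, lines are 95% intervals and filled points were called, which holds for Cebpa with Cpd6 in Study 4 (0.15) alone.

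One mouse stood apart from the rest in the fat cell genes. Vehicle replicate 4 of Study 1 had the lowest Adipoq, Lep, Plin1, Fabp4 and Cebpa of all 48 mice, and 1 array alone had less Cd36. Plin1 was 5.14 in it, against a mean of 6.90 in the other 7 vehicle mice. Lep was 10.79 against 12.10, Adipoq 11.23 against 12.35, and Cd36 10.44 against 11.47. The differences in Fabp4 and Cebpa were smaller, at −0.48 and −0.31. Ucp1 was not low in it (3.81 against 3.66).

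Other cell types differed in that mouse too. The mean of 8 white adipocyte genes, which share Adipoq, Lep and Plin1 with the 7, was 8.03 in it against 9.88 in the other 7 vehicle mice. The mean of 8 hair matrix genes, keratins and regulators of the growing hair shaft, was 10.71 against 5.37, the highest of the 48 mice. Muscle genes were at 10.64 against 12.41, endothelial genes at 7.79 against 8.92 and sebocyte genes at 8.28 against 9.08, while keratinocyte genes were at 11.44 against 11.51. Over all tested probesets the median difference of this mouse from the others was −0.002, with 17.02% lower and 14.4% higher by more than 0.5. The part of these differences in the results was not tested.

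In each of the 3 studies the mouse with the highest hair matrix level was a vehicle mouse and had the lowest mean of the 7 genes. In Study 1 this was vehicle replicate 4, at 10.71 for hair matrix genes and 9.28 for the 7 genes. In Study 2 it was vehicle replicate 4, at 10.65 and 9.80. In Study 4 it was vehicle replicate 4, at 10.06 and 9.67, followed by vehicle replicate 1, at 9.75 and 9.67. The mice next in hair matrix level were not all low in the 7 genes. In Study 1 Cpd1 replicates 3 and 7, at 9.23 and 9.06 for hair matrix genes, stood 12th and 17th from the lowest of 24 mice, and in Study 4 vehicle replicate 3, at 8.75, had the highest mean of the 7 genes. The group means of the hair matrix genes had wide spreads, and limma called 3 of the 8 genes with Cpd6 against vehicle in Study 4 (lower) and 0 of 8 in the other comparisons, where up to 7 had an unadjusted p below 0.05. In Study 4 they averaged 4.65 ± 0.76 with Cpd6, 7.65 ± 2.14 with Cpd18 and 8.26 ± 2.59 with vehicle (SD, n = 4 each). In Study 2 they averaged 5.36 ± 1.35 with Cpd2, 4.65 ± 0.87 with Cpd6 and 8.28 ± 2.73 with vehicle (SD, n = 4 each). In Study 1 they averaged 5.31 ± 1.54 with Cpd2, 7.18 ± 2.03 with Cpd1 and 6.04 ± 2.51 with vehicle (SD, n = 8 each).

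Within groups, the mean of the 7 genes and the hair matrix mean had a Pearson correlation of −0.50 over 48 mice and −0.33 over 47 without vehicle replicate 4 of Study 1. The 2 means of a mouse come from the same biopsy and array.

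**Figure D3:**
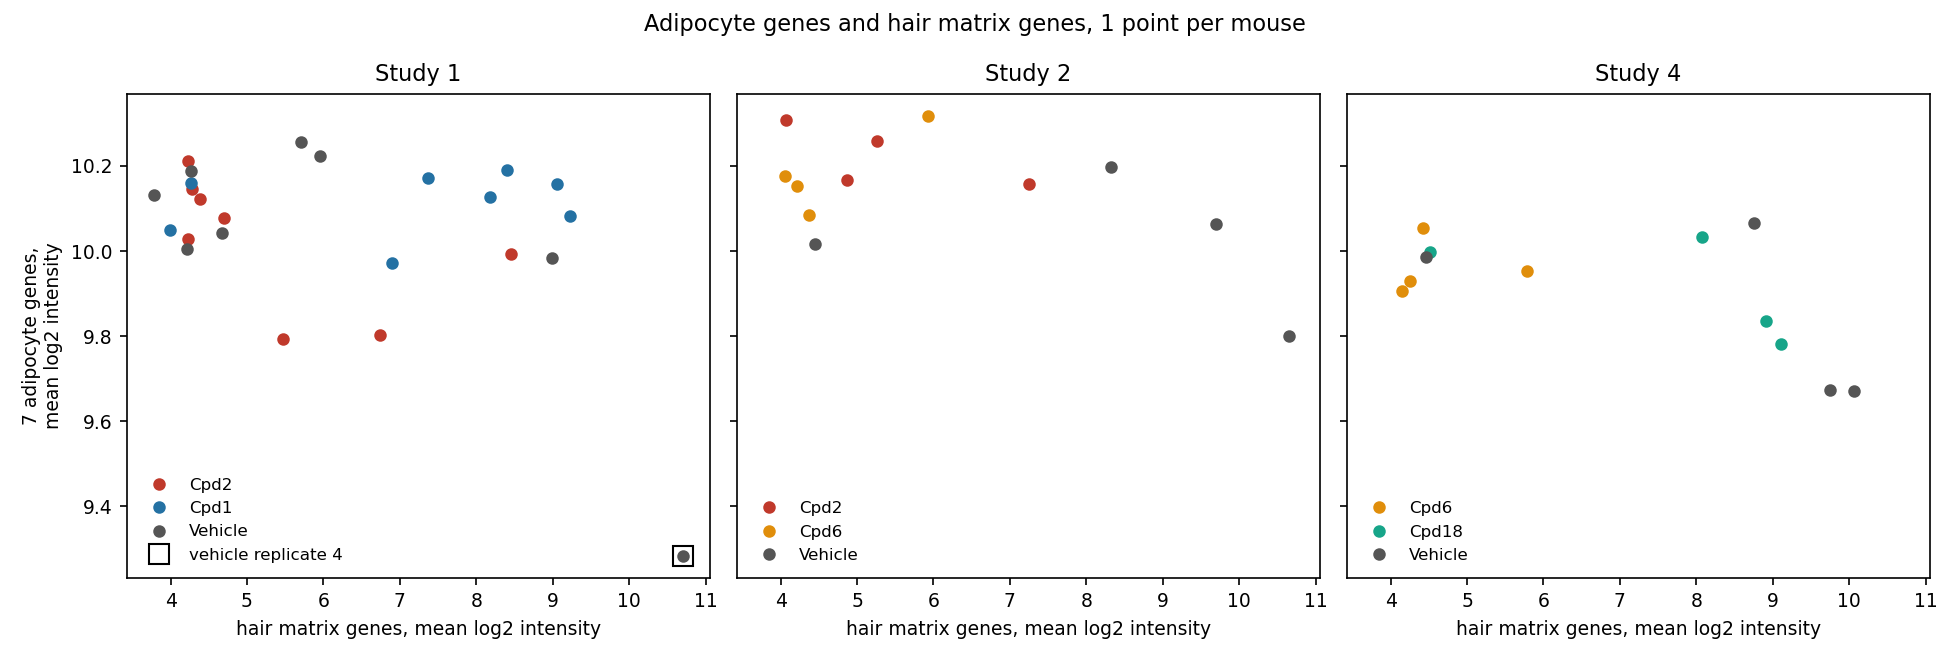
Mean log2 intensity of the 7 dermal adipocyte genes (vertical axis) against that of 8 hair matrix genes (horizontal axis) for each mouse, 1 panel per study, coloured by group. The vehicle mice farthest to the right in Studies 1, 2 and 4, at 10.71, 10.65 and 10.06, lie lowest, at 9.28, 9.80 and 9.67.

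The 7 genes did not all vary together. With group means removed, the correlations among Adipoq, Lep, Plin1, Fabp4 and Cd36 lay between 0.72 and 0.87 over the 48 mice, and between 0.53 and 0.84 without vehicle replicate 4 of Study 1. Adipoq and Cd36 were the closest pair, at 0.87 with that mouse and 0.84 without it. Cebpa followed the same 5 genes more loosely, from 0.31 to 0.65 with that mouse and from 0.01 to 0.47 without it. Ucp1 showed no relation to them, from −0.20 to −0.04 with that mouse and from −0.19 to 0.04 without it. These are descriptions over mice whose genes share an array and a biopsy.

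The genes whose levels ran most like the mean of the 7, with group means removed, included known fat cell genes. Mmd was closest (r = 0.95 over 48 mice, 0.93 over 47 without that vehicle mouse). Next were Kcnj14, a potassium channel gene (0.93, and 0.88 without it), and Plaat3, the phospholipase of adipose tissue (0.93, and 0.87). Cidec, which enlarges lipid droplets, Chpt1, which makes phosphatidylcholine, Lhfpl2, Ffar2, a receptor of short-chain fatty acids, and Pfkfb3, a regulator of glycolysis, had r from 0.92 to 0.93, and from 0.84 to 0.87 without it. Among gene groups that share no gene with the 7, the mean of 14 lipid droplet and lipolysis genes had the highest correlation with them (0.96, and 0.91 without that mouse), followed by 13 genes of fat uptake and storage (0.93, and 0.85). Endothelial genes also ran with them (0.84, and 0.70), sebocyte genes less (0.55, and 0.34) and keratinocyte genes in no like manner (−0.11, and −0.26).

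Group levels were ordered mainly by study, and study and array processing cannot be told apart. For Adipoq, Fabp4, Plin1 and Cd36, all 3 groups of Study 4 stood below every group of Studies 1 and 2. For Cebpa the 3 groups of Study 4 stood above every other group, at 12.42 with Cpd6, 12.33 with Cpd18 and 12.27 with vehicle, and the next was 12.06 with Cpd6 in Study 2. Neighbours in the order of the 9 groups were mostly within their spread. The gap to the next group exceeded the SD of both groups only for the first 3 places of Cebpa (0.09, 0.06 and 0.21) and for Cd36 between Cpd2 mice of Study 1 and Cpd6 mice of Study 4 (0.27). For Lep and Ucp1 the groups of Study 4 did not stand apart on 1 side. The highest mean of Lep, 12.27, was that of Cpd6 mice in Study 4, and vehicle mice of Study 4 lay lower, at 12.07. The lowest mean of Ucp1, 3.51, was that of Cpd1 mice in Study 1.

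The wider set of fat cell genes held both called and uncalled genes in Study 1. With Cpd2 against vehicle, 1 of 12 adipokine genes rose and 2 fell (median −0.16), 1 of 15 transcription genes rose and 2 fell (median −0.25), and 2 of 14 lipid droplet genes fell (median −0.12). Of 13 genes of fat uptake and storage 4 fell (median −0.30), and of 15 genes of fat synthesis and glucose use 5 fell (median −0.21). The median of all probesets was 0.04 and 13.1% were called in this comparison. None of these 5 groups shares a gene with the 7. Markers of other cell types were also called there, with 4 of 9 sebocyte genes (median −0.56) and 2 of 9 endothelial genes (median −0.42) lower and 3 of 4 keratinocyte genes (median 0.46) higher, and their part in these results was not tested. With Cpd1 in Study 1 limma called 1 of the 69 entries of the 5 groups (Serpina12, higher), beside 0.327% of all probesets. With Cpd2 in Study 2 it called 0 of 69, beside 0.129% of all probesets, and the methods' t-test called 0. An unadjusted limma p below 0.05 was reached there by 6 of the 69 and by 7.38% of all probesets. The medians of the 5 groups were positive in that comparison, from 0.04 for fat synthesis to 0.21 for fat uptake. Between the 2 studies the Cpd2 effect differed in a called way for 0 of 69, beside 0.726% of all probesets. There 17 of the 69 had an unadjusted limma p below 0.05, beside 15.4% of all probesets.

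These counts turned on a few mice. Cpd2 replicates 3, 4 and 7 of Study 1 were the lowest in 11 skeletal muscle genes, at means of 5.67, 7.76 and 6.56. Cpd2 replicate 2 followed at 8.81, the other 4 Cpd2 mice lay between 11.18 and 12.34, and the mice of all other groups lay between 11.80 and 12.65 save for vehicle replicate 4 of Study 1. Of the 11 muscle genes 11 fell with Cpd2 (median −2.54). Counted over the 5 groups together (69 entries, as Lpl is in 2 groups), 15 were lower and 2 higher with Cpd2 over all 16 mice. Without the 3 Cpd2 mice 3 were lower and 1 higher, and 4.65% of probesets were called. Without vehicle replicate 4 alone 35 were lower and 2 higher, with 17.7% of probesets called. Without all 4 mice 19 were lower and 1 higher, with 9.21% of probesets called. Vehicle replicate 4 had the lowest mean of all mice in each of the 5 groups. Leaving it out thus raises the vehicle means by construction, and calls gained without it are no separate support for a fall. The part of the muscle genes in these results was not tested.

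**Figure D4:**
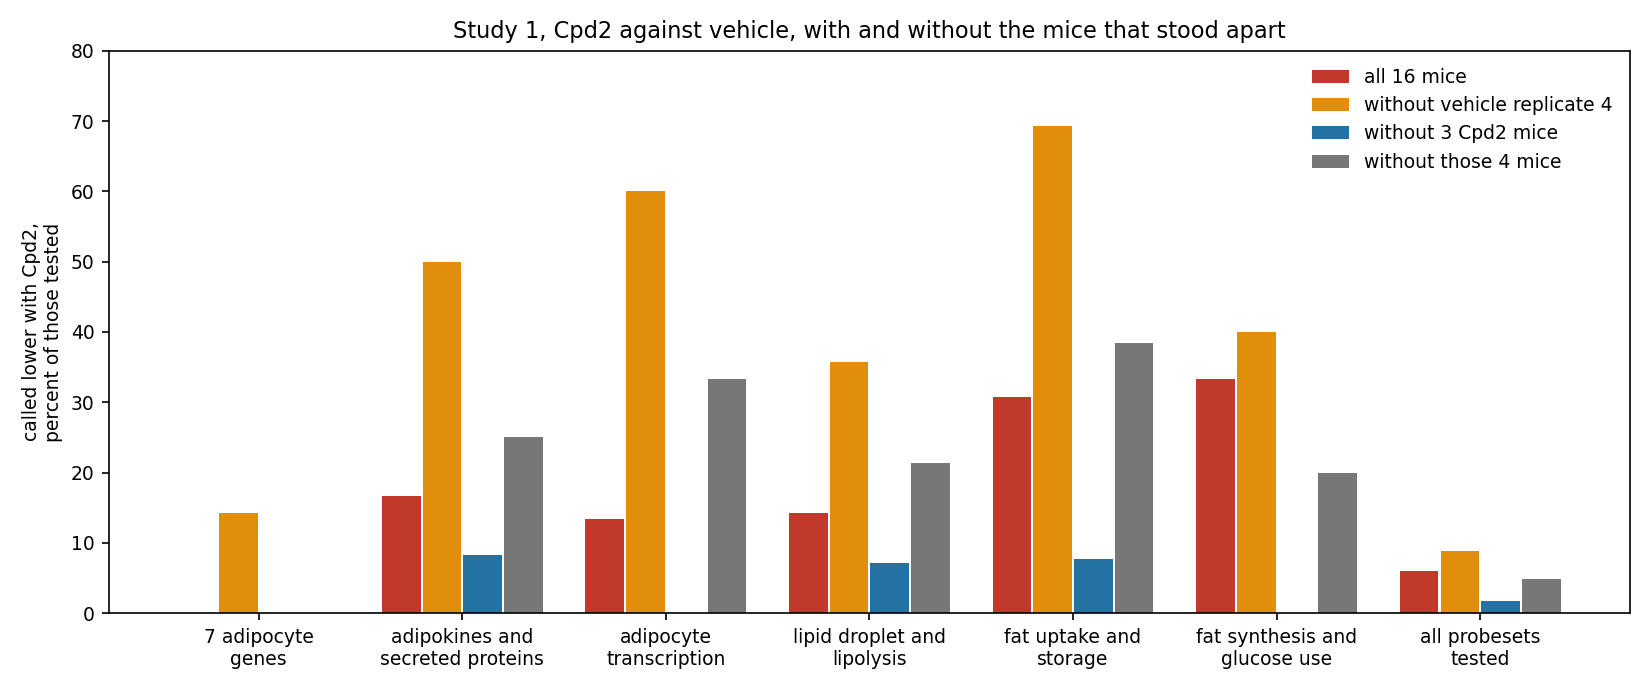
Percent of the genes of each fat cell group that were called lower with Cpd2 than with vehicle in Study 1 (vertical axis, from 0), for all 16 mice and with mice left out, by gene group (horizontal axis). The bars change with the mice kept, where 4 of 13 fat uptake and storage genes were called lower with all mice, 9 without vehicle replicate 4 and 1 without the 3 Cpd2 mice low in muscle genes.

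Among single genes, Fabp5 and Elovl3 stood out. Fabp5, the fatty acid carrier of epidermis and sebaceous gland that is also made in fat cells, fell by 1.01 with Cpd2 in Study 1 (SE 0.12, adjusted p = 3.59e-06). Its levels there ran from 8.71 to 9.46 in Cpd2 mice, from 9.65 to 10.48 in Cpd1 mice and from 9.88 to 10.47 in vehicle mice, so that every Cpd2 mouse lay below every other mouse of the study. In Study 4 Fabp5 was 8.09, 8.36, 8.32 and 8.12 in Cpd6 mice, 9.01, 9.37, 8.86 and 9.33 in Cpd18 mice, and 9.38, 9.21, 9.26 and 9.65 in vehicle mice. Fabp5 fell by 1.15 with Cpd6 (SE 0.13, adjusted p = 0.000176) and no Cpd6 mouse overlapped with another group. Cpd6 was also lower than Cpd18 (−0.92, adjusted p = 0.00177), while Cpd18 differed from vehicle by −0.23 (adjusted p = 0.664). In Study 2 Fabp5 was 9.22, 9.54, 9.69 and 9.67 in Cpd2 mice, 8.94, 9.39, 9.05 and 9.20 in Cpd6 mice, and 9.94, 9.76, 10.13 and 9.81 in vehicle mice. All treated mice of Study 2 lay below all vehicle mice, yet only Cpd6 was called (−0.76, SE 0.13, adjusted p = 0.0158), and that call was lost without Cpd6 replicate 1 or 3 or vehicle replicate 3 (adjusted p from 0.0606 to 0.0857). Cpd2 in Study 2 gave −0.38 (adjusted p = 0.453). With the methods' t-test, Fabp5 was called with Cpd2 in Study 1 (adjusted p = 0.000497) and with Cpd6 in Study 4 (0.0136), but not with Cpd6 in Study 2 (0.232) or between Cpd6 and Cpd18 (0.174). Fabp4, its relative in the fat cell, differed from vehicle by 0.04 with Cpd2 in Study 1 and by −0.003 with Cpd6 in Study 4.

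The CIDE genes encode proteins that enlarge lipid droplets. Cidea, made in brown fat and in the sebaceous gland, differed by −0.63 with Cpd2 in Study 1 (SE 0.15, adjusted p = 0.00512) and by −0.50 with Cpd6 in Study 4 (SE 0.10, adjusted p = 0.00766). Without the 3 Cpd2 mice low in muscle genes, the difference in Study 1 was −0.46 and was not called (adjusted p = 0.102), nor was it with the mean of the muscle genes as a covariate (−0.35, adjusted p = 0.294). Cidea was called lower when vehicle replicate 4 of Study 1 was left out with those 3 mice. In Study 2 Cidea differed from vehicle by 0.01 (adjusted p = 0.996) with Cpd2 and by −0.53 (adjusted p = 0.271) with Cpd6. Cidec, the relative made in white fat, differed by −0.06 (SE 0.17, adjusted p = 0.861) and 0.05 (SE 0.09, adjusted p = 0.783) with Cpd2 in Study 1 and Cpd6 in Study 4. Cidea was also lower with Cpd6 than with Cpd18 in Study 4 (−0.61, adjusted p = 0.00598). The methods' t-test called Cidea in Study 1 (adjusted p = 0.0477) but not in Study 4 against vehicle (0.0612) or Cpd18 (0.231). The difference between the 2 relatives was not tested.

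**Figure D5:**
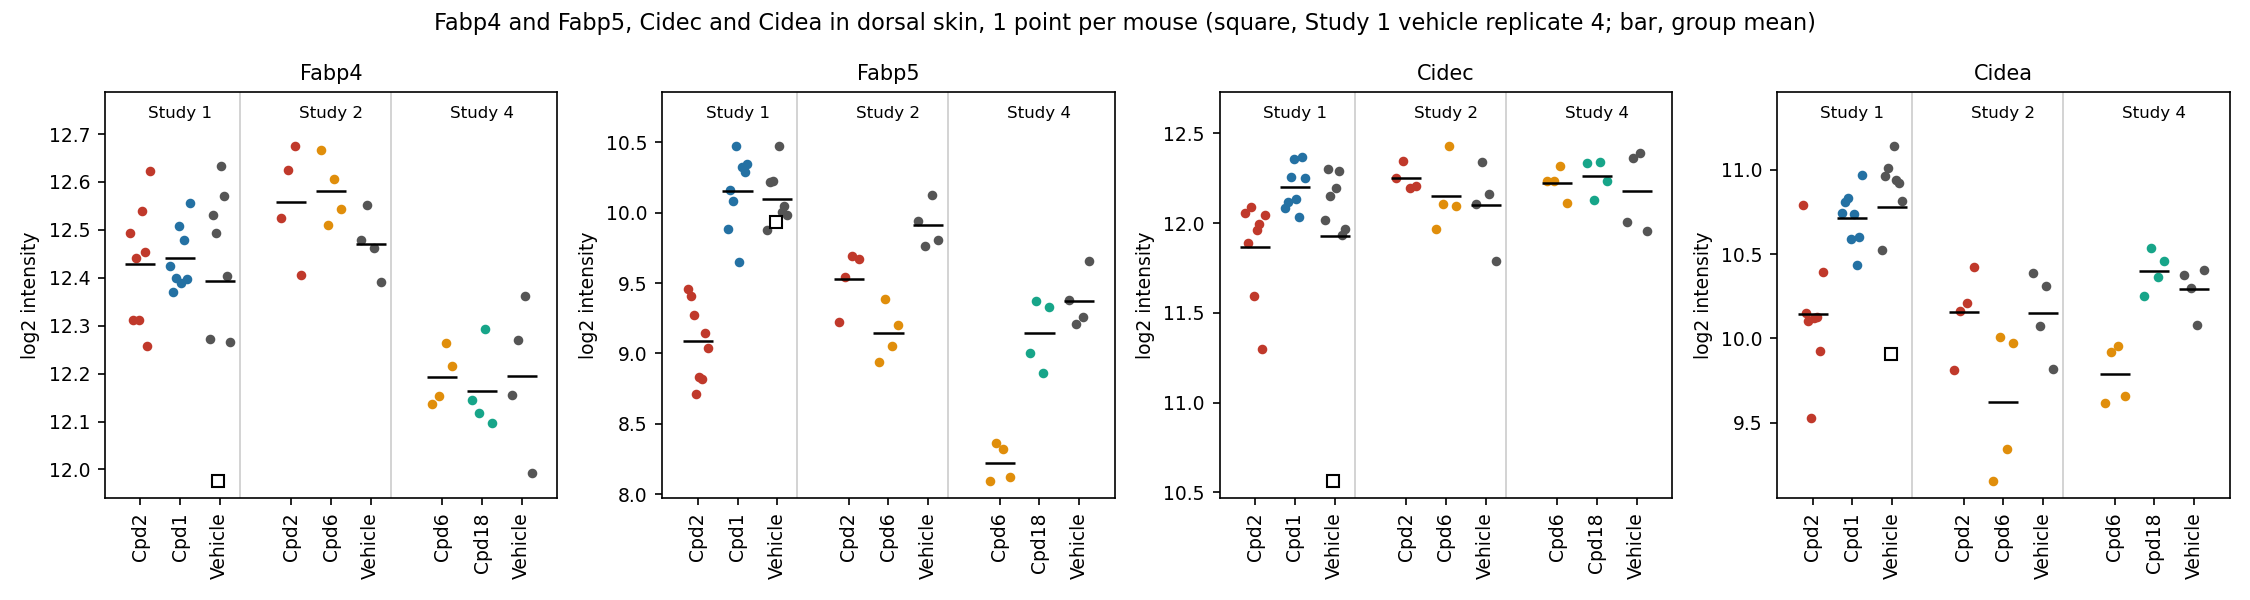
Log2 intensity (vertical axes) of Fabp4, Fabp5, Cidec and Cidea in each mouse by group (horizontal axis). Dots are mice and bars are group means. In Study 4 the 4 Cpd6 mice lie between 8.09 and 8.36 for Fabp5, below all other mice, and within the range of the other groups for Fabp4.

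Elovl3, a fatty acid elongase of brown fat and of the sebaceous gland, differed by −1.18 with Cpd2 in Study 1 (SE 0.15, adjusted p = 5.47e-06) and by −0.55 with Cpd6 in Study 4 (SE 0.16, adjusted p = 0.0386). The Study 4 call was lost without Cpd6 replicate 1 or 4 or vehicle replicate 4 (adjusted p from 0.101 to 0.109) and with the methods' t-test (0.16). In Study 2 Elovl3 averaged 8.98 ± 0.40 with Cpd2, 8.38 ± 0.35 with Cpd6 and 9.25 ± 0.17 with vehicle (SD, n = 4 each). Its highest level with Cpd6 there, 8.72, lay below its lowest with vehicle, 9.03, yet no difference from vehicle was called. Elovl3 was 1 of 4 called genes among 7 of the brown and beige fat group in Study 1, with Cidea, Cox7a1 (−1.54, adjusted p = 0.0107) and Cox8b (−1.48, adjusted p = 0.0163), and all 4 were lower with Cpd2. Cox7a1 and Cox8b are respiratory chain subunits of muscle as well as of brown fat, and neither was called without the 3 mice low in muscle genes (adjusted p = 0.248 for Cox7a1 and 0.299 for Cox8b). Both were called lower when vehicle replicate 4 of Study 1 was left out with those 3. Ucp1, a marker of the same fat, differed by 0.19 there.

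Serpina12 encodes vaspin, an adipokine of white fat that is also made in skin. It rose with Cpd2 in Study 1 by 1.17 (SE 0.16, adjusted p = 1.93e-05) and with Cpd1 by 0.76 (SE 0.16, adjusted p = 0.0361). The call with Cpd1 was lost when any of 9 of the 16 mice was left out (Cpd1 replicates 1, 4, 6 and 7 and vehicle replicates 1, 2, 3, 5 and 6), and with the methods' t-test (adjusted p = 0.198). With Cpd6 in Study 2 the difference was 0.88 and was not called (adjusted p = 0.209), and with Cpd6 in Study 4 it was 0.23 (adjusted p = 0.328). Of the 16 genes named from the 5 groups with Cpd2 in Study 1, 4 were still called without the 3 mice low in muscle genes: Serpina12, Agt, Mgll and Fabp5. With vehicle replicate 4 left out as well, all of the 16 but Acly and Stat5a were called. That mouse was chosen for its low fat cell genes, so calls of lower genes gained without it follow in part from the choice. Agt, the angiotensin precursor, differed by −0.84 (adjusted p = 0.00138) and Mgll, the lipase of monoglycerides, by −0.55 (adjusted p = 0.00134), both over all 16 mice. With the muscle covariate Agt gave −0.72 (adjusted p = 0.0555) and Mgll −0.39 (adjusted p = 0.101), so that Serpina12 and Fabp5 alone were called of the 16. Low muscle means lay mostly in Cpd2 mice (9.52 ± 2.65, against 12.19 ± 0.64 in vehicle mice, SD, n = 8 each). The covariate is thus tied to treatment, and a lost call can also reflect lower precision. Apln gave −0.72 without the covariate and −0.74 with it, while its limma adjusted p went from 0.0468 to 0.213.

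Of the 13 genes of fat uptake and storage and the 15 of fat synthesis and glucose use, the 4 and 5 called lower with Cpd2 in Study 1 included enzymes of triglyceride and fatty acid synthesis. Dgat1, the target of the compounds, differed by −0.60 (SE 0.15, adjusted p = 0.00636), Gpam, which starts glycerolipid synthesis, by −0.41 (adjusted p = 0.0137), and Acsl5, which activates fatty acids, by −0.24 (adjusted p = 0.00667). Dgat2, the other enzyme of the last step, differed by −0.09 (SE 0.16, adjusted p = 0.79). In Study 2 Dgat1 averaged 10.67 ± 0.12 with Cpd2, 10.53 ± 0.16 with Cpd6 and 10.70 ± 0.20 with vehicle (SD, n = 4 each). In Study 4 it averaged 10.67 ± 0.13 with Cpd6, 11.02 ± 0.14 with Cpd18 and 10.89 ± 0.06 with vehicle (SD, n = 4 each). Dgat1 was called in no comparison of Study 2 or Study 4. With Cpd2 in Study 1 Fasn, the fatty acid synthase, differed by −0.82 (adjusted p = 0.0208) and Elovl6, which elongates its product, by −0.55 (adjusted p = 0.00149). Acly, which makes acetyl-CoA, differed there by −0.44 (adjusted p = 0.0336), and Slc25a1, the citrate carrier, by −0.48 (adjusted p = 0.0456). Without the 3 mice low in muscle genes the 7 called genes among these differed by −0.24 to −0.71 and none passed, with adjusted p from 0.0538 for Elovl6 to 0.293 for Slc25a1. Mlxipl, a sugar-sensing transcription factor, Rora, a nuclear receptor, and Apln, a secreted peptide, differed by −0.92, −0.62 and −0.72 over all 16 mice and were not called without the 3 either (adjusted p = 0.355 for Mlxipl, 0.197 for Rora and 0.0888 for Apln). Stat5a, a transducer of hormone signals, was 0.27 higher (adjusted p = 0.0319, and 0.112 without the 3 mice). When 1 mouse was left out, limma adjusted p reached 0.0509 for Fasn, 0.0781 for Acly and 0.105 for Slc25a1. It reached 0.0901 for Mlxipl, 0.0958 for Apln and 0.0651 for Stat5a, so each of these calls was lost without some of the mice. The methods' t-test did not call Dgat1 (adjusted p = 0.0537), Fasn (0.0503), Slc25a1 (0.0991), Mlxipl (0.141), Apln (0.0669) or Stat5a (0.0997).

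Between Cpd2 and Cpd1 in Study 1 more of these genes were called, beside 17.2% of all probesets. The counts were 2 higher and 1 lower of 12 adipokine genes, 5 lower of 15 transcription genes, 4 lower of 14 lipid droplet genes, 7 lower of 13 fat uptake genes and 7 lower of 15 fat synthesis genes. Over the 5 groups this made 24 lower and 2 higher of 69 entries. Without the 3 Cpd2 mice low in muscle genes 9 were lower and 0 higher, beside 1742 called of all 28789 probesets. Fasn differed most (−1.49, SE 0.24, adjusted p = 0.00018). Pparg, the master regulator of fat cell formation, differed by −0.70 (adjusted p = 0.00415) over all mice and by −0.56 (adjusted p = 0.0624) without the 3.

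In Study 4, 4 of the 69 entries were higher and 4 lower with Cpd6, a share near the 10.7% called of all probesets. Besides Fabp5 and Cidea, Acsl5 was lower (−0.26) and these calls were kept whichever single mouse was left out. Pnpla2, the lipase that opens triglyceride stores, Slc27a1, a fatty acid transporter, Irs2, of insulin signalling, and Nr1d1, a clock repressor, were higher by 0.48, 0.71, 0.49 and 0.32, and Hilpda, an inhibitor of that lipase, was lower (−0.57). Each of these 5 calls was lost when 1 of several mice was left out, vehicle replicate 4 for all of them, and none was called with the methods' t-test (adjusted p from 0.067 to 0.124). In the same comparison 4 of 9 endothelial and 2 of 4 keratinocyte genes were higher, and 4 of 4 macrophage, 5 of 9 sebocyte and 3 of 8 hair matrix genes were lower (hair matrix median −4.26), and their part in these results was not tested. The macrophage and endothelial medians against vehicle were −0.71 and 0.25 with Cpd18, near the −0.72 and 0.28 with Cpd6. No gene of either list was called with Cpd18, where 4 of 4 macrophage and 4 of 9 endothelial genes had an unadjusted limma p below 0.05. With Cpd18 against vehicle limma called 0 of the 69 entries of the 5 groups, beside 0.00347% of all probesets, and the methods' t-test called 0. An unadjusted limma p below 0.05 was reached there by 11 of the 69 and by 7.96% of all probesets.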

How the data were processed

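The authors amplified and labelled total RNA of skin biopsies with a custom version of the NuGEN Ovation protocol, hybridised it to a custom mouse Affymetrix array and made the intensities with RMA (background correction, normalization between arrays and 1 summary value per probeset). The version of RMA is not given in the sources used here. The deposited table holds linear intensities from 1.60 to 13570, and the median of an array lay between 26.4 and 30.8. All 48 columns differed from each other (largest pairwise correlation 0.996).

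The members and gene lists, and the rule for named genes, were chosen with earlier results of these data known. Symbols were matched through the probe annotation, updated by gene identifier, and the brightest probeset on average over the 48 arrays stood for each gene. Of the 38385 probesets 24478 name 1 gene, 65 several and 13842 none. A probeset was left out where its average intensity fell in the lowest 25%, in place of the methods' present call, which needs probe-level data. Log2 intensities of the 28789 others were fitted per study with limma 3.58.1 in R 4.3.3 (1 mean per group, eBayes with trend) and adjusted over all of them with the Benjamini-Hochberg method. Differences between studies were taken from 1 fit over 48 arrays. The methods' t-test, a pooled t-test between a pair of groups that stands in for their one-way analysis of variance, was an alternative. Its p values were adjusted in the same way, an adjustment that the methods do not name. The steps were tested on simulated data.

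Genes beyond the members were named if called in a list, up to 4 per list and comparison, or if among the 8 most correlated with the members' mean. Alternatives were other filters, normalizations and thresholds, array weights, a replicate block, a fit over all arrays, a muscle covariate, every probeset of the members and leaving out each mouse. Leaving out the 3 Cpd2 mice low in muscle genes, with and without the vehicle mouse of Study 1 lowest in the members, was added after seeing the data. The number of arrays limits the precision. Replicate numbers did not pair the mice.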

Additional observations from a re-analysis of the deposited data

Results flagged for a closer look

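Vehicle replicate 4 of Study 1 was farther below the other 7 vehicle mice than the 95% limit of Dixon's test allows for a group of 8, for 5 of the 7 genes. Its log2 intensities were 11.23 for Adipoq, 10.79 for Lep, 5.14 for Plin1, 10.44 for Cd36 and 11.59 for Cebpa. These 5 were the only flags among the 72 groups of values looked at, and chance flags about 1 in 20 groups.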

How the results depend on the processing

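Over the 7 genes and 8 comparisons with single genes followed, 482 values kept their direction and their call under the alternatives other than leaving out 1 mouse, 23 turned direction, 5 gained a call and 7 lost it. Under leaving out 1 mouse, 568 were kept, 31 turned, 1 gained a call and 16 lost it. No value that turned had been called. The cause of these changes was not tested.

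The count of members called changed as follows. Between Cpd2 and Cpd1 in Study 1 (1 called) it was 0 with a 50th percentile filter, which removed Ucp1 from the test. It was 0 with quantile normalization, 0 with the muscle covariate and 0 without the 3 Cpd2 mice low in muscle genes. It was 2 with array weights, 2 in 1 fit over all 48 arrays and 0 to 1 when 1 mouse was left out. With Cpd6 against vehicle in Study 4 (1 called) it was 0 without a filter, 0 in the fit over 48 arrays, 0 with the muscle covariate, 0 under the methods' fold and p rule, and 0 whichever mouse was left out. With Cpd2 against vehicle in Study 1 (0 called) it was 1 with array weights and 0 to 1 when 1 mouse was left out. For the Cpd2 effect in Study 1 minus Study 2 (0 called) it was 1 with array weights. In all other comparisons it stayed 0 under every alternative run.

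With the replicate number as a block, the members called between Cpd2 and Cpd1 were 2, as Plin1 passed too (adjusted p = 0.0427), and no other count of members changed. Mice with the same number did not deviate together, with mean correlations of −0.05, −0.03 and 0.07 in the 3 studies.

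Directions that turned, all of them uncalled, were these log2 differences. With array weights, Cpd2 against vehicle in Study 1 gave −0.0407 for Fabp4 and −0.0046 for Adipoq. Cpd1 against vehicle gave −0.0423 for Fabp4 and −0.14 for Cd36, Cpd2 against Cpd1 0.0016 for Fabp4, Cpd6 against vehicle in Study 4 0.0040 for Fabp4, Cpd18 against vehicle 0.0281 for Cd36, and Cpd6 against Cpd18 −0.0448 for Plin1. With the muscle covariate, Cpd2 against vehicle in Study 1 gave 0.19 for Lep, 0.16 for Plin1 and 0.0554 for Cd36. Cpd2 against Cpd1 gave 0.0355 for Lep, 0.11 for Fabp4, 0.0021 for Cd36 and 0.0372 for Adipoq, Cpd18 against vehicle −0.0043 for Adipoq, and Cpd6 against Cpd18 −0.0285 for Plin1. Without the 3 Cpd2 mice low in muscle genes, Cpd2 against vehicle gave 0.0576 for Lep and 0.0204 for Plin1, and Cpd2 against Cpd1 0.0434 for Fabp4. Without those 3 and vehicle replicate 4, Adipoq was −0.0051. For Fabp4 with Cpd6 in Study 4, equal array medians gave 0.03 and quantile normalization 0.0109.

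When 1 mouse was left out, the ranges that crossed 0 were, for Cpd2 against vehicle in Study 1, −0.0112 to 0.17 for Adipoq and −0.0239 to 0.07 for Fabp4. For Cpd1 against vehicle they were −0.0867 to 0.0988 for Cd36, −0.0122 to 0.0817 for Fabp4 and −0.0255 to 0.20 for Lep. For Cpd2 against Cpd1 Fabp4 ran from −0.0393 to 0.0127, and for Cpd6 against vehicle in Study 2 Lep ran from −0.0238 to 0.16. For Cpd6 against vehicle in Study 4 they were −0.0703 to 0.0532 for Fabp4 and −0.12 to 0.0556 for Ucp1. For Cpd18 against vehicle they were −0.0144 to 0.13 for Adipoq, −0.15 to 0.11 for Cd36, −0.0993 to 0.0242 for Fabp4 and −0.036 to 0.14 for Ucp1. For Cpd6 against Cpd18 they were −0.0073 to 0.0963 for Adipoq, −0.0465 to 0.12 for Lep, −0.0913 to 0.13 for Plin1 and −0.19 to 0.027 for Ucp1.

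Of the 69 entries of the wider fat cell groups, 1 was lower and 1 higher with Cpd2 against vehicle in Study 1 once the muscle covariate was fitted, against 15 lower and 2 higher without it. Calls fell over the whole array too, to 1004 of the 28789 probesets with the covariate, against 3769 without it. Low muscle means lay mostly in Cpd2 mice, so this covariate cannot be separated from treatment.

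The number of probesets called moved by over 1.5 times under at least 1 alternative wherever any was called. It is out of 28789 probesets, save under the alternatives with another filter, which test another number. Over all alternatives it ran from 1004 to 5998 for Cpd2 against vehicle in Study 1 (3769 called), 26 to 564 for Cpd1 against vehicle (94), 1654 to 6601 for Cpd2 against Cpd1 (4964), 1 to 257 for Cpd2 against vehicle in Study 2 (37), 3 to 1081 for Cpd6 against vehicle in Study 2 (109), 943 to 4361 for Cpd6 against vehicle in Study 4 (3090), 0 to 24 for Cpd18 against vehicle (1), 14 to 239 for Cpd6 against Cpd18 (141) and 1 to 1931 for the Cpd2 effect in Study 1 minus Study 2 (209).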

Other observations

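Outside the fat cell genes, vehicle replicate 4 of Study 1 was low in 6 genes of preadipocytes and adipose stroma, with a mean of 8.32 against 8.97 in the other 7 vehicle mice, and in 4 macrophage genes, with 9.10 against 9.90. The preadipocyte and stroma genes ran with the mean of the 7 fat cell genes within groups at r = 0.61 over 48 mice and at 0.31 over 47 without that mouse, and the macrophage genes at 0.35 and 0.11.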
